A study of Mus musculus with 18 samples.

Results

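The genes described here encode the mouse proteasome, its assembly factors and its regulators. They were chosen by a rule on names, with earlier results of these data known. It took every gene whose symbol on the array begins with Psm, followed by a letter from a to g and a number. Each was represented by its brightest probe set. Of 19938 genes with a probe set of their own, 50 matched. Of these, 48 are subunits, assembly chaperones or regulators of the proteasome. The other two, Psmc3ip, a partner of the meiotic recombinases, and Psme3ip1, a binding partner of the activator Psme3, share the spelling but encode no proteasome subunit. After a filter on low values, 47 of the 50 could be tested. The 3 left out were Psma8, a testis subunit, Psmb11, the thymus subunit, and Psmg3, an assembly chaperone. Psma8 lay between 4.99 and 5.62 on the log2 scale over the 18 arrays, Psmb11 between 5.85 and 6.44, and Psmg3 between 6.22 and 6.81.

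The proteasome is the protease that degrades ubiquitin-tagged proteins, and in muscle it carries out much of the protein breakdown of atrophy. Its 20S core is a barrel of Psma (alpha) and Psmb (beta) rings, of which Psmb5, Psmb6 and Psmb7 hold the active sites. In cells exposed to interferon these are replaced by Psmb8, Psmb9 and Psmb10, which form the immunoproteasome. The 19S particle, made of the Psmc ATPases and the Psmd subunits, recognises ubiquitin, unfolds the substrate and opens the core. Psme genes encode other activators, and the Psmg and some Psmd proteins act only during assembly. The proteasome also removes the HIF alpha subunits once the EglN prolyl hydroxylases, of which EglN1 is the main one, have marked them for the VHL ubiquitin ligase.

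The series held 18 Affymetrix arrays in 6 groups of 3, all from C57BL/6 mice. Hearts came from EglN1 WT mice given the EglN inhibitor FG-4497 at 50 mg/kg into the peritoneum, or vehicle. Soleus, a slow muscle, and quadriceps, a fast one, came from EglN1 KO mice, which carried a floxed EglN1 and a Cre recombinase active in skeletal muscle, and from EglN1 WT mice, which also carried the Cre. Both genotypes received tamoxifen for 3 days before the tissues were taken. The sources used here do not give the promoter that drives Cre, the ages of the mice or the number and timing of FG-4497 doses. Numbers in the labels join a soleus and a quadriceps array for each of 6 mice, 3 of each genotype. Values are log2 intensities made by robust multi-array average (RMA), so a difference of 1 is a doubling, and a gene is said to be called where the adjusted p of the limma fit over 11963 genes was under 0.05.

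Egln1 itself read 11.03, 11.07 and 11.12 in KO soleus, against 11.29, 11.22 and 11.31 in WT soleus. In quadriceps it read 10.87, 10.67 and 10.92 in KO, against 10.94, 10.99 and 10.95 in WT. Every KO array lay below the WT arrays of its muscle, but neither difference passed the test (-0.20 ± 0.07, adjusted p = 0.4, and -0.14 ± 0.07, adjusted p = 0.435; log2 ± SE, n = 3 against 3). Where its probes lie relative to the deleted exons is not given in the sources used here. Of 8 tested cardiomyocyte markers, 7 were higher in vehicle hearts than in each WT muscle, among them the cardiac myosin Myh6, which lay between 14.06 and 14.15 in the 6 hearts and at most at 9.70 in muscle. The atrial light chain Myl4 was lower in vehicle hearts (-2.11 ± 0.14 against soleus and -1.86 ± 0.14 against quadriceps), and Myl7 did not pass the filter. Of 8 slow fibre markers, 8 were higher in WT soleus than in WT quadriceps. Slow myosin Myh7 stood apart in 2 quadriceps arrays, at 9.39 in KO replicate 2 and 8.60 in WT replicate 1, against 6.60 to 7.08 in the others, and fast myosin Myh4 varied in WT soleus, at 10.90, 13.31 and 8.99.

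Averaged over its 17 genes, the 19S particle had a mean log2 value of 9.86 ± 0.06 in FG-4497 hearts and 9.83 ± 0.03 in vehicle hearts, 10.35 ± 0.06 in KO and 10.40 ± 0.03 in WT soleus, and 10.44 ± 0.05 in KO and 10.48 ± 0.04 in WT quadriceps (SD, n = 3). The 14 constitutive subunits of the 20S core averaged 10.48 ± 0.06 and 10.46 ± 0.05 in FG-4497 and vehicle hearts, and between 10.79 and 10.82 in the 4 muscle groups. The 3 immunoproteasome subunits ran the other way, at 8.26 ± 0.14 and 8.39 ± 0.13 in FG-4497 and vehicle hearts and between 7.60 and 7.68 in the muscle groups. Hearts and muscles did not overlap in any of these averages, while FG-4497 and vehicle hearts overlapped in all 3, as did KO and WT arrays of each muscle. In RNA from whole tissue, fewer cells of a type and less RNA per cell cannot be told apart.

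**Figure D1:**
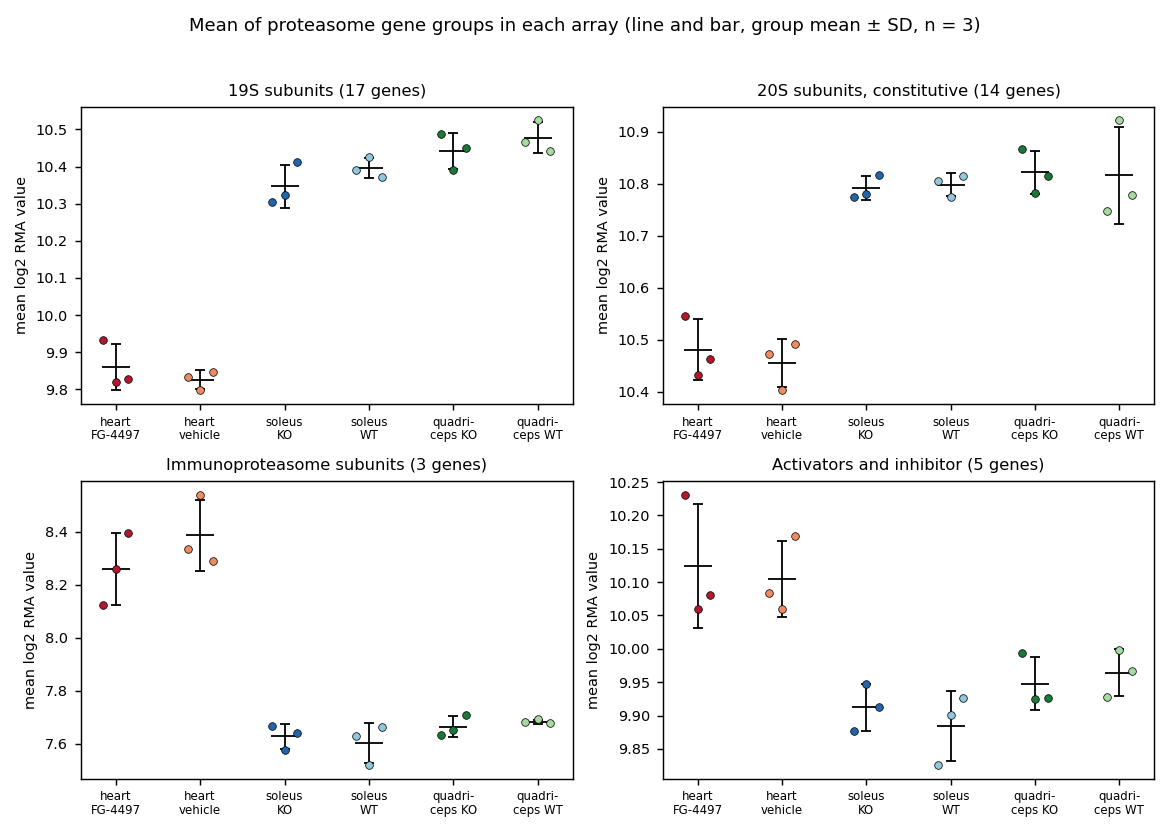
Mean log2 RMA value of 4 groups of proteasome genes in each of the 18 arrays, by tissue and treatment or genotype; points are arrays, the line and bar are the group mean ± SD (n = 3). Heart arrays lie below all muscle arrays for 19S and constitutive 20S subunits and above them for immunoproteasome subunits and for the activators and inhibitor.

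The first question was whether loss of EglN1 or its inhibition changed expression of the proteasome genes. No member was called in KO soleus (0 of 47, with 0.184% of all genes tested called), in KO quadriceps (0 of 47, background 0.794%) or in FG-4497 hearts (0 of 47, background 2.23%). Averaging the KO effect over both muscles also called 0 members (background 0.911%, and 1 member at an unadjusted p under 0.05, where 12.1% of all genes were), as did the difference between the KO effects in soleus and quadriceps (background 0.00836%, and 1 member at an unadjusted p under 0.05, where 6.55% of all genes were). By limma at an unadjusted p under 0.05 the counts were 1 in soleus, 2 in quadriceps and 1 in heart, against 7.56%, 12.2% and 11.3% of all genes tested. The median member differed by -0.02 in soleus, -0.03 in quadriceps and 0.01 in heart, beside medians of 0.00, -0.02 and -0.00 over all genes tested. The 95% intervals of all 47 differences lay between -0.29 and 0.32 in soleus, between -0.41 and 0.33 in quadriceps and between -0.42 and 0.44 in heart.

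In soleus the smallest p belonged to Psmd14, the deubiquitinase of the 19S lid. It read 10.58, 10.72 and 10.69 in KO, against 10.74, 10.91 and 10.75 in WT, a difference of -0.14 ± 0.06 (adjusted p = 0.66). The core subunit Psmb4 read 11.86, 11.78 and 11.86 in KO, against 11.78, 11.61 and 11.67 in WT (0.15 ± 0.08, adjusted p = 0.738), and the core subunit Psma5 read 9.16, 9.09 and 9.23 in KO, against 9.26, 9.32 and 9.30 in WT (-0.13 ± 0.07, adjusted p = 0.74). The second probe set of Psma5 differed by only -0.05. KO and WT arrays did not overlap for any of the 3, though those of Psmb4 met within rounding, and none passed the test. Over the members, KO and WT soleus arrays did not overlap for 3 genes that were higher and 5 that were lower in KO, where 6.62% and 6.09% of all genes tested did so.

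In quadriceps Psma3, an alpha ring subunit, came nearest to a call. It read 11.12, 11.07 and 11.01 in KO, against 11.29, 11.32 and 11.27 in WT, so the 3 KO arrays all lay below the 3 WT arrays. The difference was -0.22 ± 0.05 (adjusted p = 0.0687), and a fit with a trended, robust prior called it (adjusted p = 0.0383). The other two probe sets of Psma3 differed by -0.24 and -0.21. For the 5 members with several probe sets, whether the brightest also reads pseudogenes or related genes was not tested. In soleus the same gene read 10.96, 10.91 and 10.89 in KO, against 10.95, 10.99 and 11.04 in WT, and averaged over both muscles it differed by -0.15 ± 0.04 (adjusted p = 0.112). The 19S lid subunit Psmd8 read 10.76, 10.81 and 10.96 in KO quadriceps, against 11.05, 11.10 and 11.04 in WT (-0.22 ± 0.09, adjusted p = 0.339). The core assembly chaperone Psmg1 read 8.26, 8.28 and 8.12 in KO, against 8.29, 8.45 and 8.35 in WT (-0.14 ± 0.07, adjusted p = 0.464). KO and WT quadriceps arrays did not overlap for 1 member that was higher and 6 that were lower in KO, where 5.73% and 11.4% of all genes tested did so. The KO effect of Psmd8 differed between the muscles by 0.24 ± 0.11 (adjusted p = 0.755), of Psma3 by 0.15 ± 0.07 (adjusted p = 0.749) and of the 19S chaperone Psmd9 by 0.16 ± 0.08 (adjusted p = 0.801), none of which passed.

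In hearts Psmb6, one of the catalytic beta subunits, read 10.50, 10.27 and 10.53 with FG-4497, against 10.19, 10.13 and 10.27 with vehicle. The groups met within rounding without overlap, and the difference of 0.23 ± 0.09 did not pass (adjusted p = 0.314). The lid subunit Psmd13 read 9.71, 9.71 and 9.53 with FG-4497, against 9.45, 9.39 and 9.58 with vehicle (0.17 ± 0.09, adjusted p = 0.541), and the ATPase Psmc3 read 9.64, 9.53 and 9.55, against 9.42, 9.42 and 9.48 (0.13 ± 0.08, adjusted p = 0.612). The groups overlapped for Psmd13 and not for Psmc3. The 3 immunoproteasome genes had negative estimates, from -0.18 ± 0.11 for Psmb9 to -0.05 ± 0.11 for Psmb8, and none passed. In the same hearts limma called 0 of 6 MHC class I genes and 0 of 9 interferon response genes (background 2.23%). At an unadjusted p under 0.05 the counts were 2 and 3, where 11.3% of all genes tested were. These were Tap1, Tap2, Gbp3, Irf1 and Ifit3, all lower with FG-4497, from -0.36 ± 0.11 for Gbp3 to -0.29 ± 0.10 for Tap2. Tap1 came nearest to a call (-0.34 ± 0.08, adjusted p = 0.0589). Nlrc5 and Stat2 had estimates above 0 (0.01 ± 0.09 and 0.01 ± 0.08). FG-4497 and vehicle hearts did not overlap for 3 members that were higher and 1 that was lower with FG-4497, where 8.77% and 7.17% of all genes tested did so.

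**Figure D2:**
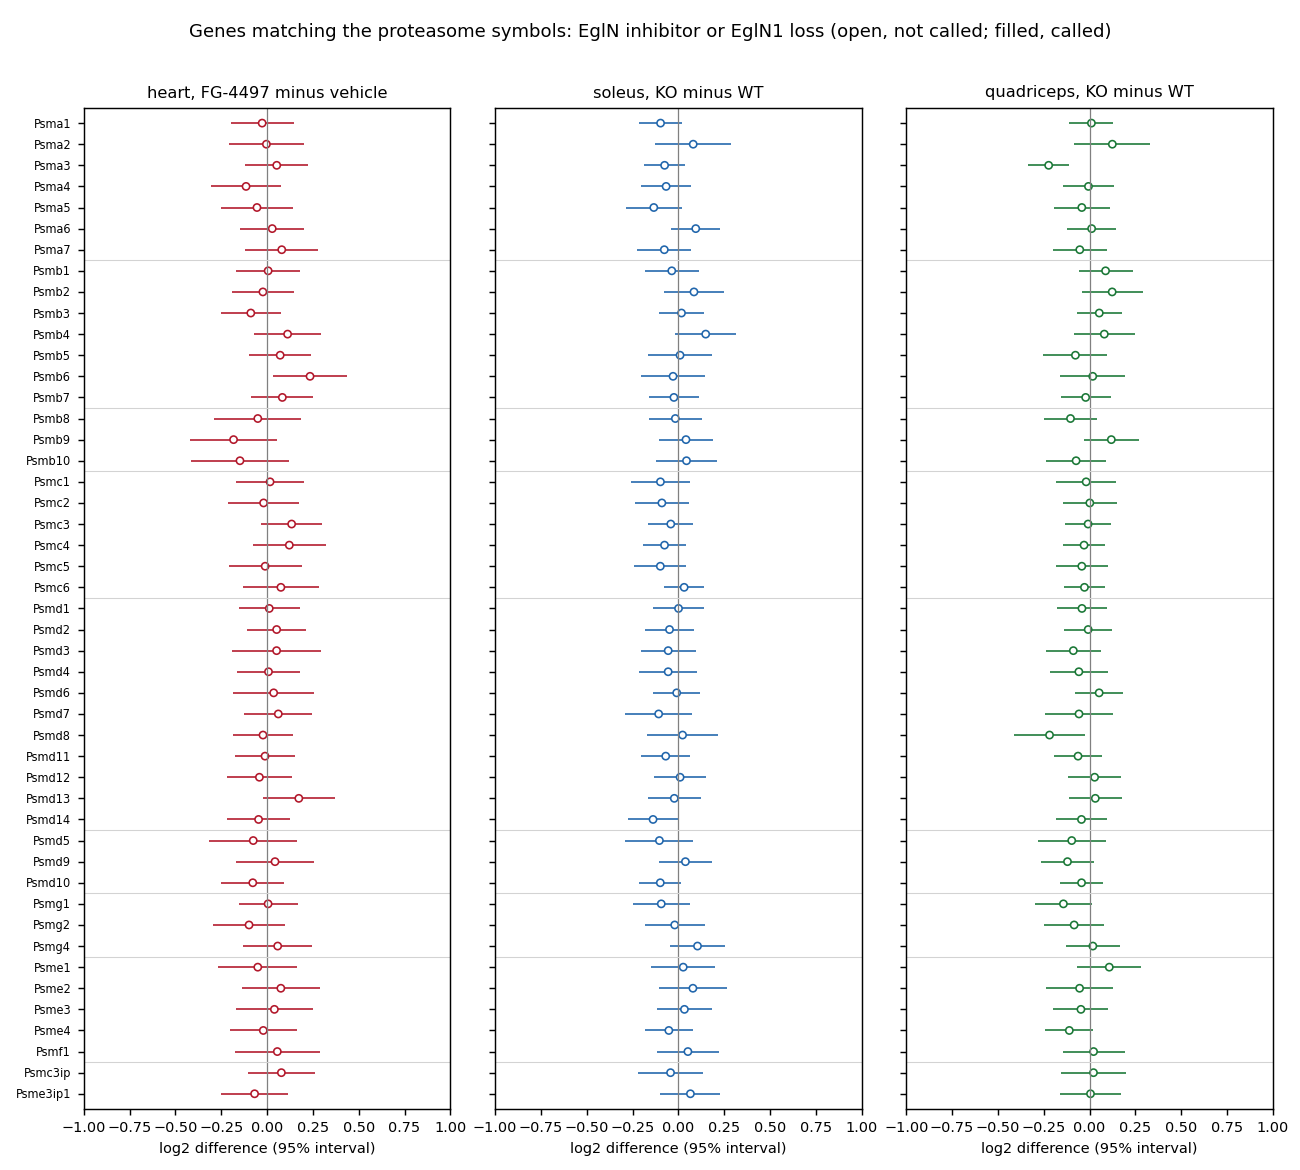
Log2 difference of each of the 47 tested genes with its 95% interval, for FG-4497 minus vehicle in heart and KO minus WT in soleus and quadriceps; horizontal lines separate the gene groups. All points are open, since no gene was called in any of the 3 comparisons.

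Tissues differed far more than treatments did. In vehicle hearts 10 members were higher and 29 lower than in WT soleus, which is 83.0% of the 47 (background 60.3%), and 11 were higher and 32 lower than in WT quadriceps, which is 91.5% (background 67.1%). The median member differed by -0.37 from soleus and by -0.43 from quadriceps, beside 0.02 and 0.01 over all genes tested. Both comparisons use the same vehicle hearts. Hearts came from mice given vehicle, in a separate experiment, and muscles from other mice given tamoxifen and carrying Cre. Tissue, treatment and experiment therefore cannot be told apart, and which arrays were normalized together is not known. Over all 18 arrays, 24 members had all 6 hearts below all 12 muscle arrays and 8 had all hearts above, where 18.7% and 18.3% of all genes tested did so. The remaining 15 overlapped.

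The 19S particle was lower in heart almost throughout. Its 6 ATPases were called lower than in either WT muscle, and of the 11 other subunits 10 were lower than in soleus and 11 lower than in quadriceps. The exception, Psmd3, differed from soleus by -0.16 ± 0.09 (adjusted p = 0.135). Among all genes tested, 29.9% were called lower than in soleus and 34.3% lower than in quadriceps, and 30.4% and 32.8% higher. The median difference of the 17 subunits was -0.59 against soleus and -0.66 against quadriceps.

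Psmd6, a structural subunit of the lid, had the largest difference of the 47. It read 9.83, 9.60 and 9.63 in vehicle hearts, against 11.26, 11.19 and 11.17 in WT soleus and 11.37, 11.32 and 11.29 in WT quadriceps. Hearts were 2.87-fold lower than soleus (-1.52 ± 0.08 on the log2 scale, adjusted p = 1.43e-11) and 3.12-fold lower than quadriceps (-1.64 ± 0.08, adjusted p = 3.04e-12). FG-4497 hearts, at 9.90, 9.63 and 9.64, lay with the vehicle hearts, and the 6 KO muscle arrays, from 11.15 to 11.45, with the WT muscles.

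Psmd2, the large scaffold that docks ubiquitin receptors, read 11.09, 11.10 and 11.10 in vehicle hearts, against 11.96, 11.91 and 11.99 in WT soleus and 11.95 to 12.06 in WT quadriceps. The differences were -0.86 ± 0.06 (adjusted p = 5.54e-10) and -0.91 ± 0.06 (adjusted p = 1.58e-10). Its second probe set gave -0.90 and -0.98. The ATPase Psmc4 read 9.50, 9.39 and 9.63 in vehicle hearts, against 10.32, 10.29 and 10.31 in WT soleus and 10.33, 10.43 and 10.38 in WT quadriceps (-0.80 ± 0.07 and -0.88 ± 0.07). No heart array reached the lowest muscle array for Psmd6, Psmd2 or Psmc4. Psmc3 differed least from soleus, by -0.15 ± 0.06, and from quadriceps by -0.26 ± 0.06. Its call against soleus was lost without vehicle heart replicate 1 or 2 or WT soleus replicate 1 or 2 (adjusted p from 0.0649 to 0.0731) and after repeated quantile normalization (-0.07, adjusted p = 0.236).

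Chaperones of the 19S base went the same way. Psmd5, which holds ATPases during assembly, read 8.51, 8.26 and 8.62 in vehicle hearts, against 9.34, 9.64 and 9.35 in WT soleus and 8.95 to 9.04 in WT quadriceps. Hearts were lower than soleus (log2 difference -0.98 ± 0.10, adjusted p = 1.39e-07) and lower than quadriceps (log2 difference -0.53 ± 0.10, adjusted p = 0.000123). Psmd10 (gankyrin) was lower (log2 difference -0.47 ± 0.06 and -0.43 ± 0.06). Psmd9 differed by -0.04 ± 0.08 from soleus, which did not pass, and was lower than in quadriceps (log2 difference -0.32 ± 0.08).

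The constitutive 20S subunits were less uniform. Of the 7 tested alpha subunits, Psma2, Psma3, Psma5 and Psma6 were lower in vehicle hearts than in each WT muscle, Psma1 and Psma7 were higher, and Psma4 was not called in either comparison (-0.04 ± 0.07 in both). Psma6 read 10.59, 10.46 and 10.60 in vehicle hearts, against 11.47, 11.35 and 11.43 in WT soleus and 11.39, 11.56 and 11.46 in WT quadriceps (-0.86 ± 0.06, adjusted p = 1.75e-09, and -0.92 ± 0.06, adjusted p = 4.52e-10). Psma1 read 10.95, 10.87 and 10.96 in vehicle hearts, against 10.60, 10.63 and 10.66 in WT soleus and 10.56, 10.63 and 10.51 in WT quadriceps (0.30 ± 0.06 and 0.36 ± 0.06). For Psma5 the probe set used gave -0.71 and -0.63 and the second one -0.49 and -0.33. The vehicle hearts lay wholly below the muscles for Psma6 and wholly above them for Psma1. Psma7 was higher by 0.34 ± 0.08 and 0.22 ± 0.08, and its call against quadriceps was lost without vehicle heart replicate 3 (adjusted p = 0.0759) or WT quadriceps replicate 3 (adjusted p = 0.081).

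Among the beta subunits, Psmb4, a structural one, read 10.54, 10.51 and 10.61 in vehicle hearts, against 11.78, 11.61 and 11.67 in WT soleus and 11.38, 11.64 and 11.53 in WT quadriceps. Hearts were lower (log2 difference -1.13 ± 0.08, adjusted p = 8.91e-10, and -0.97 ± 0.08, adjusted p = 4.22e-09), and no heart array reached the muscles. Psmb1, Psmb6 and Psmb7 were also lower in both comparisons, Psmb5 was lower than in quadriceps, and Psmb2 and Psmb3 were not called in either. For Psmb3 the probe set used gave -0.05 and -0.02 against soleus and quadriceps. Its second probe set gave -0.16 and -0.18 and was not tested on its own.

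Each of the 3 catalytic subunits is described beside the inducible one that replaces it, and the difference within a pair was not tested. Psmb5, the chymotrypsin-like subunit, read 12.12, 12.10 and 12.20 in vehicle hearts, against 12.21, 12.03 and 12.20 in WT soleus and 12.30, 12.47 and 12.45 in WT quadriceps. The heart and soleus arrays overlapped (-0.01 ± 0.08, adjusted p = 0.943), while all vehicle hearts lay below WT quadriceps (-0.27 ± 0.08, adjusted p = 0.00492). Its inducible counterpart Psmb8 read 7.32, 7.75 and 7.62 in vehicle hearts, against 6.99, 6.81 and 6.81 in WT soleus and 7.03, 7.06 and 7.04 in WT quadriceps. All hearts lay above all muscles (0.69 ± 0.09, adjusted p = 2.73e-06, and 0.52 ± 0.09, adjusted p = 5.38e-05).

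Psmb6, the caspase-like subunit, read 10.19, 10.13 and 10.27 in vehicle hearts, against 10.57, 10.62 and 10.59 in WT soleus and 10.78, 10.98 and 10.75 in WT quadriceps (-0.40 ± 0.08, adjusted p = 0.000594, and -0.64 ± 0.08, adjusted p = 2.75e-06). Its counterpart Psmb9 read 8.13, 8.27 and 8.02 in vehicle hearts, against 7.98, 7.76 and 7.94 in WT soleus and 7.87, 7.80 and 7.80 in WT quadriceps (0.25 ± 0.09, adjusted p = 0.022, and 0.32 ± 0.09, adjusted p = 0.0041). The call of Psmb9 against soleus was lost without vehicle heart replicate 2 (adjusted p = 0.116) or WT soleus replicate 2 (adjusted p = 0.118), and FG-4497 hearts, at 7.76, 7.99 and 8.12, overlapped the muscles.

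Psmb7, the trypsin-like subunit, read 10.57, 10.54 and 10.64 in vehicle hearts, against 10.87, 10.81 and 10.96 in WT soleus and 11.14, 11.34 and 11.15 in WT quadriceps (-0.30 ± 0.06 and -0.63 ± 0.06). Its counterpart Psmb10 read 9.56, 9.60 and 9.23 in vehicle hearts, against 7.92, 7.99 and 8.23 in WT soleus and 8.15, 8.21 and 8.19 in WT quadriceps. Hearts were 2.67-fold higher than soleus (1.42 ± 0.10, adjusted p = 2.04e-09) and 2.43-fold higher than quadriceps (1.28 ± 0.10, adjusted p = 4.64e-09). FG-4497 hearts read 9.14, 9.29 and 9.52, again above every muscle array.

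Activators and the inhibitor had no common direction. Psme1, the alpha subunit of the interferon-induced PA28 cap, read 10.67, 10.75 and 10.64 in vehicle hearts, against 9.29, 9.22 and 9.26 in WT soleus and 9.30, 9.34 and 9.14 in WT quadriceps. Hearts were 2.69-fold higher than soleus (1.43 ± 0.09, adjusted p = 2.13e-10) and 2.68-fold higher than quadriceps (1.42 ± 0.09, adjusted p = 1.31e-10), and all 6 hearts lay above all 12 muscle arrays. Psme2, the beta subunit of the same cap, read 9.77, 9.58 and 9.72 in vehicle hearts, against 9.46, 9.61 and 9.70 in WT soleus and 9.34, 9.45 and 9.60 in WT quadriceps. It overlapped soleus (0.10 ± 0.09, adjusted p = 0.36), and its higher level than in quadriceps (0.23 ± 0.09, adjusted p = 0.0339) was lost without vehicle heart replicate 1 or 3 or WT quadriceps replicate 1 or 2 (adjusted p from 0.0746 to 0.152). Psme3, the nuclear PA28 gamma, was lower in heart (log2 difference -0.66 ± 0.08 and -0.60 ± 0.08). The inhibitor Psmf1 was lower than in soleus (log2 difference -0.23 ± 0.09, adjusted p = 0.0414), a call lost without vehicle heart replicate 1 or 2 or WT soleus replicate 2 or 3 (adjusted p from 0.126 to 0.161), and differed from quadriceps by -0.19 ± 0.09 (adjusted p = 0.0744).

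Psme4 (PA200), an activator that works without ubiquitin, was the one member called in opposite directions. It read 11.66, 11.69 and 11.80 in vehicle hearts, against 11.23, 11.31 and 11.22 in WT soleus and 11.82, 11.97 and 11.82 in WT quadriceps. Hearts were higher than soleus by 0.46 ± 0.06 (adjusted p = 7.26e-06) and lower than quadriceps (log2 difference -0.16 ± 0.06, adjusted p = 0.0412). The second call was lost without vehicle heart replicate 1 or 2 or WT quadriceps replicate 2 (adjusted p from 0.101 to 0.197) and after repeated quantile normalization (-0.07, adjusted p = 0.379).

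The 3 tested Psmg chaperones of the 20S core were higher in heart, unlike those of the 19S base. Psmg4, which helps to build the alpha ring, read 8.16, 8.09 and 8.27 in vehicle hearts, against 7.58, 7.37 and 7.55 in WT soleus and 7.03, 6.94 and 7.07 in WT quadriceps. The groups fell in 3 separate steps: hearts were higher than soleus by 0.68 ± 0.07 (adjusted p = 3.26e-07) and higher than quadriceps by 1.16 ± 0.07 (adjusted p = 1.45e-10). Psmg1 and Psmg2, which form a pair in the first steps of assembly, were higher by 0.27 ± 0.07 and 0.44 ± 0.08 than in soleus and by 0.23 ± 0.07 and 0.28 ± 0.08 than in quadriceps. Of the genes that are no subunits, Psmc3ip differed by 0.10 ± 0.08 and 0.20 ± 0.08, and Psme3ip1 by -0.19 ± 0.08 and -0.25 ± 0.08.

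**Figure D3:**
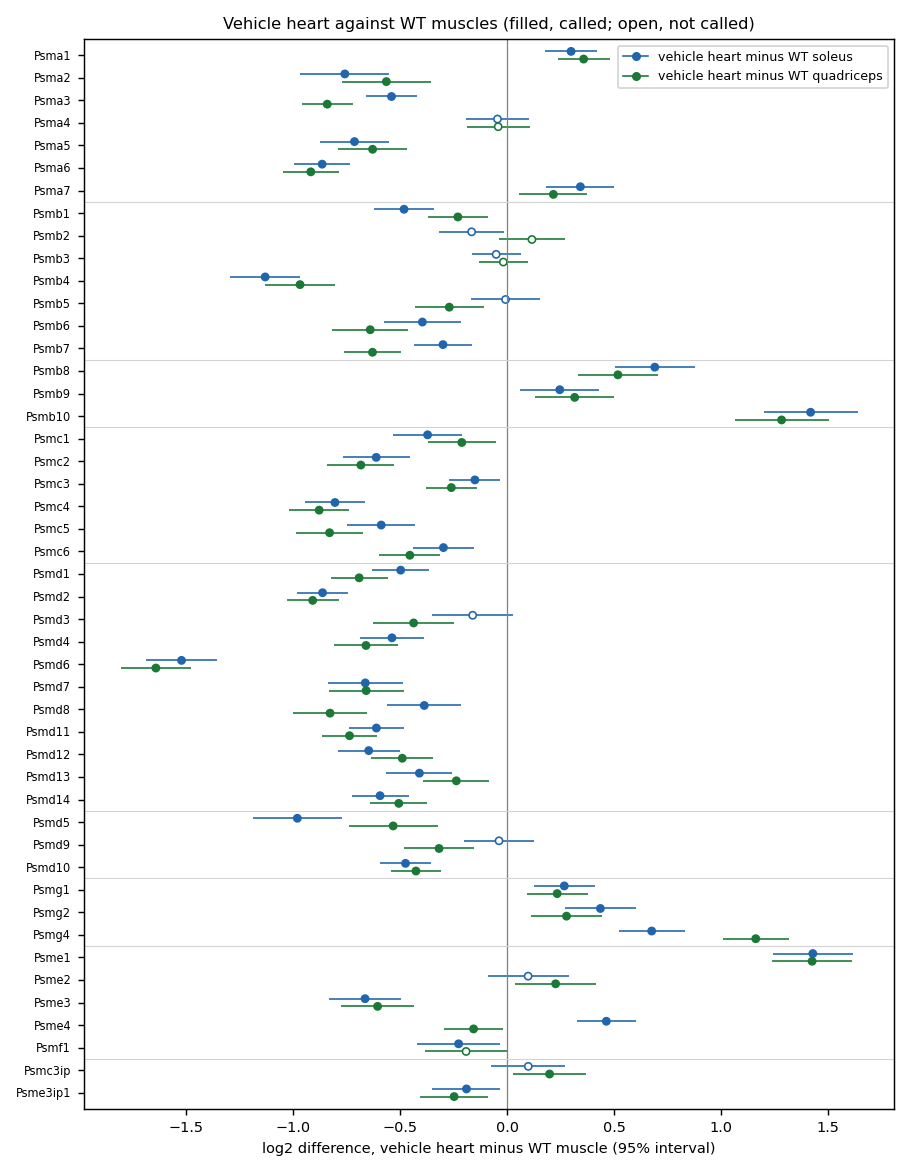
Log2 difference of each tested gene with its 95% interval, vehicle heart minus WT soleus (blue) and minus WT quadriceps (green); filled points were called and horizontal lines separate the gene groups. The 19S subunits lie left of 0, and Psmb8, Psmb9, Psmb10, Psme1 and the Psmg chaperones lie right of it.

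**Figure D4:**
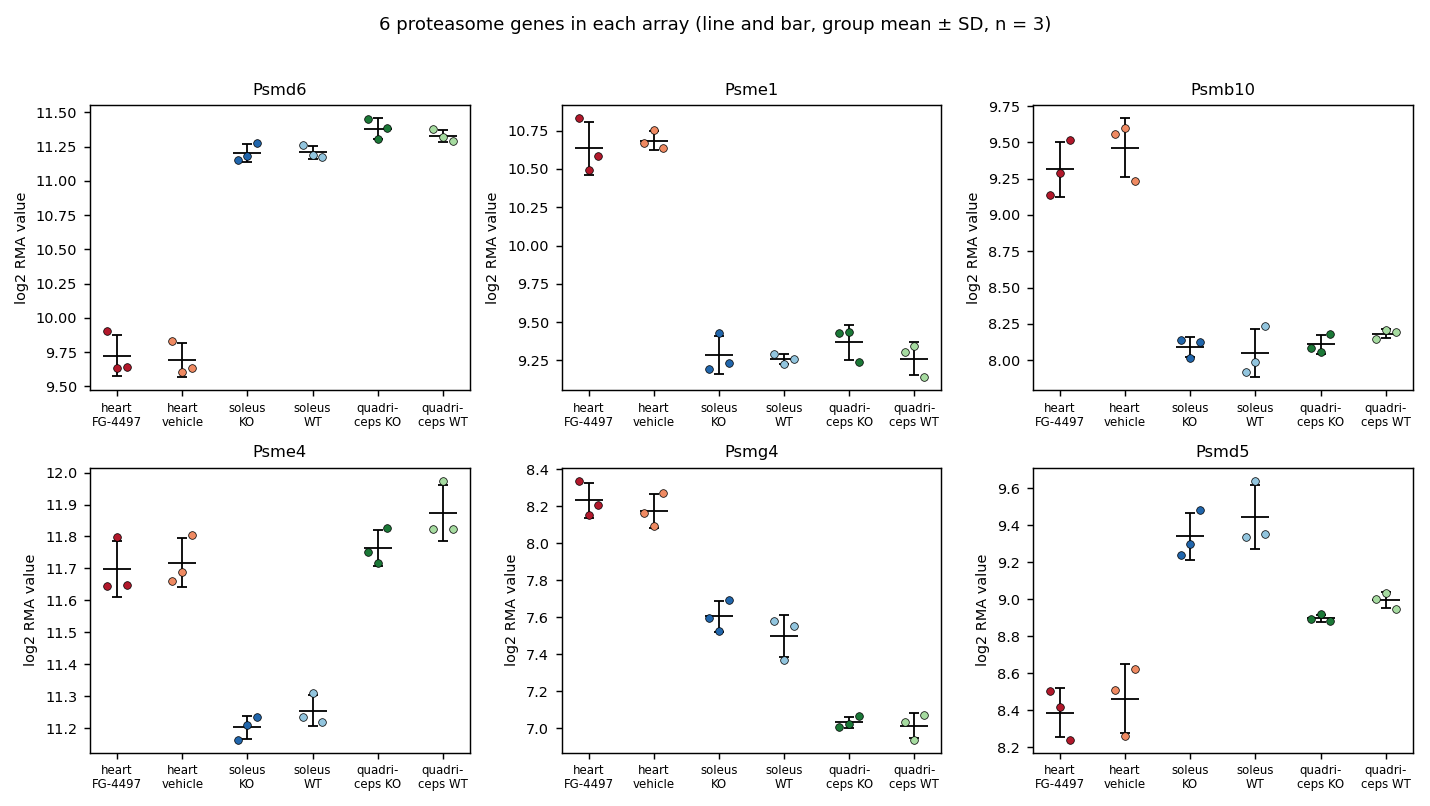
Log2 RMA values of 6 proteasome genes in each array, with the group mean ± SD (n = 3). Psmd6 and Psmd5 are lowest in hearts, Psme1, Psmb10 and Psmg4 are highest in hearts, and Psme4 is lowest in soleus.

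Genes that act with the immunoproteasome were also higher in heart. Of 6 measured genes of MHC class I peptide presentation, which consumes its products, 5 were called higher in vehicle hearts than in each WT muscle. B2m, the light chain of MHC class I, was higher by 0.39 ± 0.08 and 0.94 ± 0.08, and the peptide transporter subunit Tap2 by 0.53 ± 0.08 and 0.65 ± 0.08, against soleus and quadriceps. The regulator Nlrc5 differed by -0.10 ± 0.09 and -0.29 ± 0.09, the second of them called. Of 9 measured interferon response genes, 8 were higher than in soleus and 9 higher than in quadriceps, with Ifit3 at 0.88 ± 0.14 and 1.02 ± 0.14. Over all genes tested, 30.4% and 32.8% were called higher. Markers of other cell types moved with these genes. Of 11 tested macrophage and leukocyte markers, 7 were higher in vehicle hearts than in WT soleus and 6 higher than in WT quadriceps, and their list averaged 7.65 to 7.77 in vehicle hearts, against 7.20 to 7.26 and 7.13 to 7.42. Cd3g, Cd79a and Cd14 did not pass the filter, and the pan-leukocyte gene Ptprc was not called (0.15 ± 0.13 and 0.16 ± 0.13). All 8 endothelial markers were higher in heart in both comparisons, averaging 10.19 to 10.25 in vehicle hearts, against 9.15 to 9.43 and 8.58 to 8.72. Their part in the results was not tested.

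Promoter windows are printed for 5 genes that were higher or lower in heart, to show what lies around the start sites of genes of different classes. They were chosen after the values were seen. Each runs from 250 bases before to 30 bases after the RefSeq start site (GRCm38.p6), both strands were searched, and capitals mark the motif named for each gene. In Psme1 (chr14:55578244-55578523, plus strand) it is the core of the interferon-stimulated response element, GAAA and GAAA with any 2 bases between, found on the other strand. The match begins at offset 9 from the start site and so lies wholly after it. In Psmb8 (chr17:34197945-34198224, plus strand) it is TTCNNNGAA, the interferon-gamma activated site. In Psmb10, whose ACGTG matches lie on both strands of CACGTG (chr8:105938363-105938642, minus strand) they are ACGTG and GCGTG, core letters of the hypoxia response element. In Psme4 (chr11:30771525-30771804, plus strand) it is TGACNNNGC, core of the antioxidant response element to which NRF1, the factor of proteasome genes, binds. That match begins at offset -7 and runs across the start site. Psmb8 and Psme4 also held GCGTG, 2 times each, not in capitals. Psmd6 (chr14:14120916-14121195, minus strand) held none of the motifs searched.
Psme1: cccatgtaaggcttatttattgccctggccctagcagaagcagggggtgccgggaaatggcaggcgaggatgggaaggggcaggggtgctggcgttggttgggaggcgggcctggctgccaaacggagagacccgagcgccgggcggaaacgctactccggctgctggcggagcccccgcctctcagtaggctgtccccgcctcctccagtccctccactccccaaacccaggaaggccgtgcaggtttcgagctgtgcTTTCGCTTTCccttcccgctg
Psmb8: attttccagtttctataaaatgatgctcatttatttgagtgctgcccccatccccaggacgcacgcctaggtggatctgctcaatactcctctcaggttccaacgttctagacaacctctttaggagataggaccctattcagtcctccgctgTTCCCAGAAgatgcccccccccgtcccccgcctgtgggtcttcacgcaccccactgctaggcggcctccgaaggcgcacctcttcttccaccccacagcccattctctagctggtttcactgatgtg
Psmb10: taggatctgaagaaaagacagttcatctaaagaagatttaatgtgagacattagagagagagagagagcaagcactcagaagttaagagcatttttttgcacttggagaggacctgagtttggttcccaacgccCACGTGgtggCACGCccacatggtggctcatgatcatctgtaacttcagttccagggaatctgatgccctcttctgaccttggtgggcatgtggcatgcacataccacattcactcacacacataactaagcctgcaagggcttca
Psme4: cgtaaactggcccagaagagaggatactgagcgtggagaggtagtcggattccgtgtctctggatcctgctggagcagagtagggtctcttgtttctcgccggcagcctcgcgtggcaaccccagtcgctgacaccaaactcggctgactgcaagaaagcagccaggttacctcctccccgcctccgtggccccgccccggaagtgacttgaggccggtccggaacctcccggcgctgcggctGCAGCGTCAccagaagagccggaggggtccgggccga
Psmd6: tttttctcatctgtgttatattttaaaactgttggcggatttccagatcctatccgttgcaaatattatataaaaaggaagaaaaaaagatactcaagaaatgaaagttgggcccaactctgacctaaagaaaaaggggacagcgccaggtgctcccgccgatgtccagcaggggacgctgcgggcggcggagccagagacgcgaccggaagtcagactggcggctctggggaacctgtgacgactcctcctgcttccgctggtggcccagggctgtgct

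Over whole 300-base windows (50 bases after the start), 42 of the 50 genes had a sequence, among them 40 subunits, chaperones and regulators. The interferon-stimulated element core was found in 5 of these 40 (12.5%; 3.99% of 27025 genes), in Psmb3, Psmd4, Psmd9, Psme1 and Psmg4. TTCNNNGAA was found in 3 (7.5%; 9.55% of all), in Psmb8, Psmd2 and Psmg1. TGACNNNGC was found in 6 (15%; 14% of all), in Psmb5, Psmb6, Psmc6, Psmd12, Psmd9 and Psme4. CCAAT, the NF-Y box, was found in 14 (35%; 41.1% of all), ACGTG in 8 (20%; 21.8%) and GCGTG in 22 (55%; 35.2%). The genes with the interferon-stimulated element core were of several classes and did not share a direction: Psmd4 was lower and Psme1 higher in heart. All 6 with TGACNNNGC were called lower in vehicle hearts than in WT quadriceps, but so were most of the 47 members tested. Over all genes tested the share was 34.3%. For Psme4 this call was lost without single arrays and after repeated quantile normalization. Against WT soleus Psme4 was higher, and Psmb5 and Psmd9 were not called. A link between motif and direction was not tested.

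Soleus and quadriceps were compared in KO and in WT mice, which are different animals in 1 fit. In KO mice 5 members were higher in soleus and 10 lower, 31.9% of the 47 (background 45.7%, with 23.7% higher and 22.0% lower). In WT mice 6 were higher and 12 lower, 38.3% (background 49.7%, with 23.0% higher and 26.7% lower). The median member differed by -0.05 in both genotypes, beside 0.01 and -0.01 over all genes tested. In both genotypes Psmb2, Psmd5 and Psmg4 were called higher, and Psma3, Psmb6, Psmb7, Psmc5, Psmd1, Psmd3 and Psme4 lower. These 10 (39.0% of all genes tested were called alike in both genotypes) are 66.7% of the members called in KO and 55.6% of those called in WT mice, where for all genes the shares were 85.4% and 78.5%. Endothelial markers were also higher in soleus, 8 of 8 in KO and 7 of 8 in WT mice, averaging 9.32 to 9.47 in KO and 9.15 to 9.43 in WT soleus, against 8.64 to 8.78 in KO and 8.58 to 8.72 in WT quadriceps. Their part was not tested.

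Psme4 had the lowest difference in WT and KO mice. It read 11.16, 11.21 and 11.23 in KO soleus, against 11.75, 11.72 and 11.83 in KO quadriceps (-0.56 ± 0.05, adjusted p = 3.19e-06). In WT mice it read 11.23, 11.31 and 11.22 in soleus, against 11.82, 11.97 and 11.82 in quadriceps, and was 1.54-fold lower (-0.62 ± 0.05, adjusted p = 1.06e-06). In each genotype every soleus array lay below every quadriceps array.

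Psmg4 had the highest difference in WT and KO mice. It read 7.60, 7.53 and 7.69 in KO soleus, against 7.01, 7.02 and 7.06 in KO quadriceps (0.57 ± 0.06, adjusted p = 8.47e-06). In WT mice soleus was 1.40-fold higher (0.49 ± 0.06, adjusted p = 3.02e-05). Psmd5 read 9.24, 9.30 and 9.48 in KO soleus, against 8.89, 8.92 and 8.88 in KO quadriceps (0.44 ± 0.08, adjusted p = 0.000453), and in WT mice the difference was 0.45 ± 0.08 (adjusted p = 0.000357). For both chaperones, one of the 20S core and one of the 19S base, soleus and quadriceps did not overlap in either genotype.

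Of the catalytic subunits, Psmb7 read 10.86, 10.83 and 10.88 in KO soleus, against 11.21, 11.19 and 11.17 in KO quadriceps (-0.33 ± 0.06, adjusted p = 0.000377), and in WT mice it differed by -0.33 ± 0.06 (adjusted p = 0.00035). Psmb6 read 10.53, 10.60 and 10.57 in KO soleus, against 10.96, 10.93 and 10.68 in KO quadriceps (-0.29 ± 0.07, adjusted p = 0.00607), and in WT mice by -0.24 ± 0.07 (adjusted p = 0.015), a call lost without WT soleus replicate 3 (adjusted p = 0.0521) or WT quadriceps replicate 2 (adjusted p = 0.0856). Psmb5 read 12.15, 12.19 and 12.12 in KO soleus, against 12.50, 12.29 and 12.20 in KO quadriceps (-0.18 ± 0.07, adjusted p = 0.0664), and was called lower in WT soleus (-0.26 ± 0.07, adjusted p = 0.00931). Between KO and WT mice the difference of Psmb5 itself differed by 0.09 ± 0.10 and did not pass (adjusted p = 0.952).

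Few of the inducible genes separated the muscles. In KO mice Psmb8 differed by -0.08 ± 0.06, Psmb9 by -0.01 ± 0.06 and Psmb10 by -0.02 ± 0.07, none called. Psmb8 read 6.83, 6.80 and 6.94 in KO soleus, against 6.84, 6.96 and 7.02 in KO quadriceps, and the groups overlapped. Psmb9 read 8.04, 7.91 and 7.85, against 7.96, 7.94 and 7.93, and Psmb10 read 8.14, 8.01 and 8.12, against 8.09, 8.06 and 8.18, with overlap as well. In WT mice Psmb8 was called lower in soleus (-0.17 ± 0.06, adjusted p = 0.032), but leaving out any 1 of 5 of its 6 arrays, all but WT soleus replicate 1, ended the call (adjusted p from 0.0622 to 0.127). The cap subunit Psme1 read 9.20, 9.43 and 9.23 in KO soleus, against 9.43, 9.44 and 9.24 in KO quadriceps, and did not pass (-0.08 ± 0.07). Psme2 read 9.78, 9.67 and 9.56 in KO soleus, against 9.45, 9.42 and 9.36 in KO quadriceps, and was called higher (0.26 ± 0.08, adjusted p = 0.0139), though not without KO soleus replicate 1 (adjusted p = 0.0629).

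Other members that differed between the muscles came from several classes. Psma3 was lower in WT soleus (-0.30 ± 0.05, adjusted p = 0.000141) and in KO soleus (-0.15 ± 0.05, adjusted p = 0.0167), the second call being lost without KO soleus replicate 2 or 3 or KO quadriceps replicate 1 (adjusted p from 0.0548 to 0.0593). Psmd8 was lower in WT soleus (-0.44 ± 0.08, adjusted p = 0.000561), where it read 10.62, 10.77 and 10.47, against 11.05, 11.10 and 11.04 in WT quadriceps. The core subunit Psmb2 read 11.68, 11.78 and 11.80 in KO soleus, against 11.56, 11.44 and 11.52 in KO quadriceps, and 11.68, 11.64 and 11.69 in WT soleus, against 11.26, 11.57 and 11.32 in WT quadriceps. It was higher in soleus of both (0.24 ± 0.07, adjusted p = 0.0118, and 0.28 ± 0.07, adjusted p = 0.00451), and the call in KO mice was lost without KO quadriceps replicate 2 (adjusted p = 0.0558). The ATPase Psmc5 read 8.95, 8.85 and 8.94 in KO soleus, against 9.33, 9.12 and 9.17 in KO quadriceps (-0.30 ± 0.06, adjusted p = 0.00124), and Psmd9 read 7.62, 7.75 and 7.76 in WT soleus, against 7.96 to 8.01 in WT quadriceps (-0.28 ± 0.06, adjusted p = 0.00177). Soleus and quadriceps did not overlap in any of these comparisons. Called in WT mice alone were also the 19S subunits Psmc6 (-0.16 ± 0.05), Psmd12 (0.16 ± 0.06) and Psmd13 (0.17 ± 0.06) and the core subunit Psmb1 (0.25 ± 0.06), and in KO mice alone Psmb4 (0.23 ± 0.07), Psmc2 (-0.16 ± 0.06), Psmc3 (-0.14 ± 0.05) and Psmd6 (-0.18 ± 0.05). None of these was called in the test of the difference between genotypes, and the call of Psmb4 was lost without KO quadriceps replicate 2 (adjusted p = 0.0923). Psmd1 and Psmd3 were lower in soleus of both genotypes (log2 differences -0.15 ± 0.06 and -0.24 ± 0.06 in KO, and -0.19 ± 0.06 and -0.28 ± 0.06 in WT mice).

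**Figure D5:**
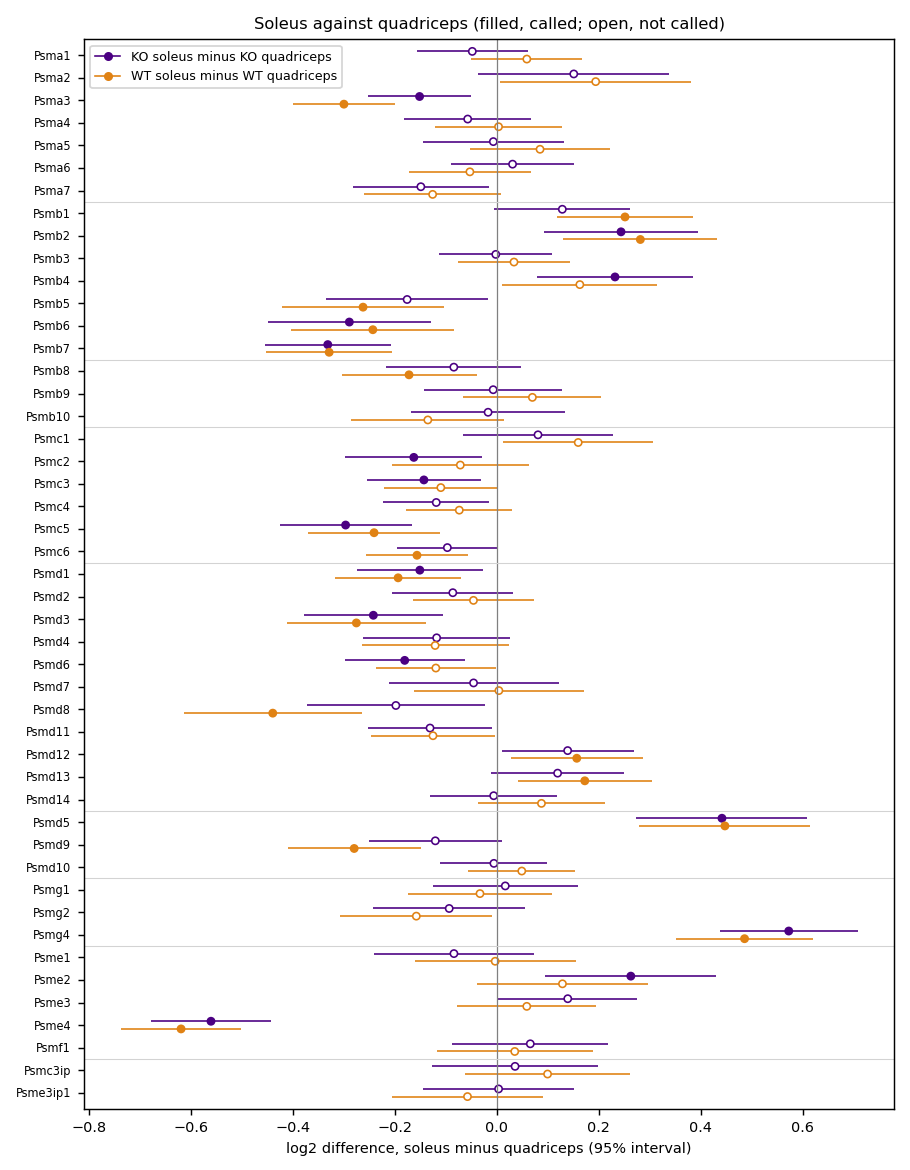
Log2 difference of each tested gene with its 95% interval, soleus minus quadriceps, in KO mice (purple) and WT mice (orange); filled points were called and horizontal lines separate the gene groups. Psmg4 and Psmd5 lie farthest right and Psme4 farthest left in both genotypes.

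Factors that control proteasome genes were read as well. Of 10 measured genes of p97 and the NRF1 route, 10 were lower in vehicle hearts than in WT soleus, and 1 was higher and 7 were lower than in WT quadriceps. Over all genes tested, 29.9% were lower than in soleus, and 32.8% were higher and 34.3% lower than in quadriceps. The 1 higher gene was Maff, also among the 10, which did not pass the filter of the muscle fit. In vehicle hearts it lay near the filter level of 6.58 over the 18 arrays. Its mean passed that level with the FG-4497 hearts included. Nfe2l1, which encodes NRF1, read 11.37, 11.42 and 11.30 in vehicle hearts, against 12.20, 12.22 and 12.20 in WT soleus and 11.70, 11.81 and 11.78 in WT quadriceps. It was lower in heart (log2 difference -0.84 ± 0.07, adjusted p = 3.91e-09, and -0.40 ± 0.07, adjusted p = 3.14e-05), and higher in WT soleus than in WT quadriceps by 0.45 ± 0.05 (adjusted p = 1.85e-05). Nfe2l2, which encodes NRF2, was lower than in soleus (log2 difference -0.62 ± 0.08) and differed from quadriceps by 0.03 ± 0.08, not called. In hearts given FG-4497, 1 of the 10 was called (background 2.23%): Maff, a small MAF partner of NRF factors, read 8.45, 8.05 and 8.72, against 6.62, 6.73 and 6.59 with vehicle (1.76 ± 0.14, adjusted p = 5.8e-05). In KO soleus and KO quadriceps limma called 0 of the 9 tested (background 0.184% and 0.794%). The count at an unadjusted p under 0.05 was also 0 in each, where 7.56% and 12.2% of all genes tested were.

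Of 11 measured proteasome partners, 1 was higher and 4 lower in vehicle hearts than in WT soleus, and 0 were higher and 5 lower than in WT quadriceps. That is 45.5% called in each comparison, beside 60.3% and 67.1% of all genes tested. Ecpas, which scaffolds the assembled proteasome, was lower (log2 difference -0.45 ± 0.07 and -1.08 ± 0.07), and lower in soleus than in quadriceps (-0.67 ± 0.07 in KO and -0.63 ± 0.07 in WT mice). Unlike the Psmg chaperones, Pomp was lower in vehicle hearts than in WT soleus (log2 difference -0.47 ± 0.08, adjusted p = 5.41e-05 by limma). It was higher in soleus than in quadriceps (0.26 ± 0.07 in KO and 0.27 ± 0.07 in WT mice). Of 5 genes of the VHL ligase, 2 examples are given for heart, and Elob, Eloc and Rbx1 are not described there. The 2 give no direction for the list, and 60.3% and 67.1% of all genes tested were called. The scaffold Cul2 was lower (log2 difference -0.87 ± 0.08 and -0.96 ± 0.08), and Vhl was higher by 0.39 ± 0.11 and 0.36 ± 0.11. Elob and Eloc were called lower in soleus than in quadriceps (-0.42 ± 0.05 and -0.26 ± 0.06 in KO, -0.50 ± 0.05 and -0.27 ± 0.06 in WT mice). Cul2, Rbx1 and Vhl were not called between the muscles in either genotype. None of the partners and none of the VHL ligase genes was called in KO muscles or with FG-4497 by the limma fit. At an unadjusted p under 0.05 the partners counted 1 in KO quadriceps and 0 in KO soleus and in heart, and the ligase genes 0 in all 3. Over all genes tested the shares were 12.2% in quadriceps, 7.56% in soleus and 11.3% in heart. Of 6 ubiquitin and E1 genes, Uba6 was the one measured here.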

How the data were processed

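Gene expression was measured in 18 RNA samples, extracted with TRIzol, on Affymetrix whole-transcript mouse arrays. The authors deposited log2 values, 1 per probe set, and the submitters' processing notes name RMA. Neither its version nor the arrays normalized together could be read from the sources used here. Array medians lay between 6.68 and 6.81 and replicates correlated at 0.986 or more. Arrays have no read depth, so their number limits the precision, and 3 against 3 samples allow an exact permutation p of 0.1 at the lowest.

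The platform annotation gave a single gene for 21789 of the 35556 probe sets and several for 1621, and did not list 12146. Symbols were updated through gene identifiers. Each gene took its brightest probe set, and genes whose mean lay under the 40th percentile of a fit's arrays were left out. limma 3.58.1 in R 4.3.3 fitted the 12 muscle arrays with the mouse as a random block (consensus correlation 0.178), the 6 hearts alone, and all 18 arrays for heart against muscle. Benjamini-Hochberg adjustment ran over all 11963 genes of a fit, and the fits were tested on simulated data. The labels call the replicates biological. The labels' numbers were read as mouse numbers. Soleus and quadriceps of 1 mouse deviated together in 4 of 6 pairs (r over 0.1, range -0.00 to 0.38), and same-numbered samples of different mice in 1 of 9.

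Values in every array are given for up to 8 called members with the largest differences per comparison, for the 3 smallest p where fewer than 3 were called, and for the catalytic subunits, Psme1, Psme2 and Psme4. Other lists are given by counts and examples, and the VHL ligase in heart against muscle by examples alone. The members and lists were chosen with earlier results of these data known. Promoters came from RefSeq (GRCm38.p6). Protein sequences were not used here.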

Additional observations from a re-analysis of the deposited data

How the results depend on the processing

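Members called were counted again without a filter or with one at the 20th percentile, after repeated quantile normalization, with a trended and robust prior, with the mean over probe sets, with array weights, with other blocks or array sets, and without each array in turn. For loss of EglN1 and for FG-4497 the count stayed at 0 under each of these except the trended and robust prior in quadriceps, which called 1 member, Psma3; the cause was not tested. Leaving out 1 array gave 0 to 0 there, 14 to 18 in WT and 10 to 17 in KO mice for soleus against quadriceps, 36 to 38 for heart against soleus and 40 to 41 for heart against quadriceps. The other settings gave 15 to 23, 11 to 21, 36 to 40 and 39 to 43. With the replicate number in the title as a block the EglN1 and FG-4497 counts were 0. With the mouse as a fixed block, which is the pairing of both muscles, soleus against quadriceps called 16 in WT and 11 in KO mice, and without a block 16 and 12. Leaving out KO quadriceps replicate 2 and WT quadriceps replicate 1 together, the arrays highest in Myh7, was chosen after seeing the data and gave 15 and 12. No direction of a called gene reversed. With 3 arrays a group, the 95% intervals of single members in the EglN1 and FG-4497 comparisons reached 0.44 on the log2 scale. That value is no limit of detection, since a call also had to pass the adjustment over all 11963 genes. The smallest change that could be called was not determined.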
